A study of Mus musculus with 8 samples.

Results

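Apoe, Clu, Apod and Ptgds encode secreted proteins that bind lipids. The values below are the counts of these 4 gene symbols, of 27849 gene rows in all, in every cell of the mouse subventricular zone measured by Drop-seq, a method that captures single cells in droplets with barcoded beads and counts each transcript molecule by its unique molecular identifier (UMI). The 8 libraries come from mice that carry the CGD transgene, in which a Nestin promoter cassette drives CreERT2, H2B-eGFP and the diphtheria toxin receptor as one reading frame, made by pronuclear injection on a C57BL/6 background. In 4 libraries from animals of 2 months, viable cells were taken as GFP high, GFP low, GFP negative or unsorted. The other 4 are an age series of viable cells at 2 weeks, 2 months, 6 months and 12 months. Every library carries the transgene, and neither the number nor the sex of the animals behind each is given in the labels. Each group is 1 library, so no difference below has a replicate check and no test was made. Levels are given as UMIs of the gene per 1000000 UMIs of the same cells (CPM). Intervals in parentheses are exact 95% intervals that cover counting error only. Unsorted cells and the age-series library of 2 months share an age and lack a GFP gate. The ratio between them is given beside the other ratios as the size of a difference between libraries alike in these. They come from different experiments, and the sex of their animals differed, as read below.

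Apoe is the main apolipoprotein of lipid particles made in the brain and is known as an astrocyte product that microglia can also make. Clu, clusterin or apolipoprotein J, is an extracellular chaperone carried on such particles and binds complement. Apod and Ptgds are lipocalins, small secreted barrel-shaped carriers of hydrophobic molecules; Ptgds is also the enzyme that turns prostaglandin H2 into prostaglandin D2. Lipoprotein receptors and Trem2 take up Apoe and Clu particles, and Abca1 and Abcg1 load them with lipid.

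The analysis kept 8974 cells with 400 or more UMIs, of 11017 barcodes, after 126 likely doublets were set aside. The libraries held from 750672 to 2633834 UMIs, and the median cell had from 722 UMIs in the GFP negative library to 1237 at 2 weeks. The study states 6600 cells for the sort experiment, and its 4 libraries hold 6600 barcodes, of which 5511 reached 400 UMIs. Pairs of libraries shared a barcode in 2 of 28 cases, 1 barcode each. Cells fell into 17 clusters, made without the 4 genes and grouped by marker genes into 11 classes. They were 2432 astrocyte- and neural stem cell (NSC)-like cells, 1890 oligodendrocyte-like, 1483 neuroblast-like, 1439 dividing-progenitor-like, 781 microglia-like, 270 mature-neuron-like, 249 oligodendrocyte-precursor-like, 141 endothelial-like, 114 pericyte- and smooth-muscle-like, 76 ependymal-like and 63 erythrocyte-like cells, named below without the suffix. A mixed cluster of 36 blood and border cells stayed unnamed. Among cells with reads of Xist or of Y-linked genes, the age-series libraries of 2 and 12 months held Xist-only cells and no Y-only cell (435 against 0 and 322 against 0). The 2-week library held the reverse (0 against 288), and the other 5 libraries held both kinds. Age against 2 weeks therefore cannot be told apart from the sex of the animals, whereas 12 and 2 months match in it. The unsorted library held 337 Xist-only and 172 Y-only cells, and the 6-month library 197 and 101. Ratios of either to the age-series libraries of 2 or 12 months therefore also differ in sex.

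The 4 genes gave 67503 Apoe, 21437 Clu, 14000 Apod and 13165 Ptgds UMIs in the kept cells. In GENCODE vM21 on GRCm38, Apoe lies on the minus strand of chr7 at 19696109-19699188, with 4 exons. Clu is on the plus strand of chr14 at 65968483-65981547, with 9 exons. Apod is on the minus strand of chr16 at 31296192-31314808, with 5 exons, and Ptgds is on the minus strand of chr2 at 25466709-25470046, with 7 exons. No other annotated gene overlaps any of them. The rest of both families was sparse. Another 17 apolipoprotein genes gave 1688 UMIs in all, most of them from Apopt1 (745), Apoo (344) and Apool (278), whose products are mitochondrial proteins rather than lipid carriers. Apoc1, an apolipoprotein encoded next to Apoe, gave 210. Of 9 other lipocalins 4 had a UMI, 43 UMIs in all, of which Rbp4, the retinol carrier, gave 30.

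**Figure D1:**
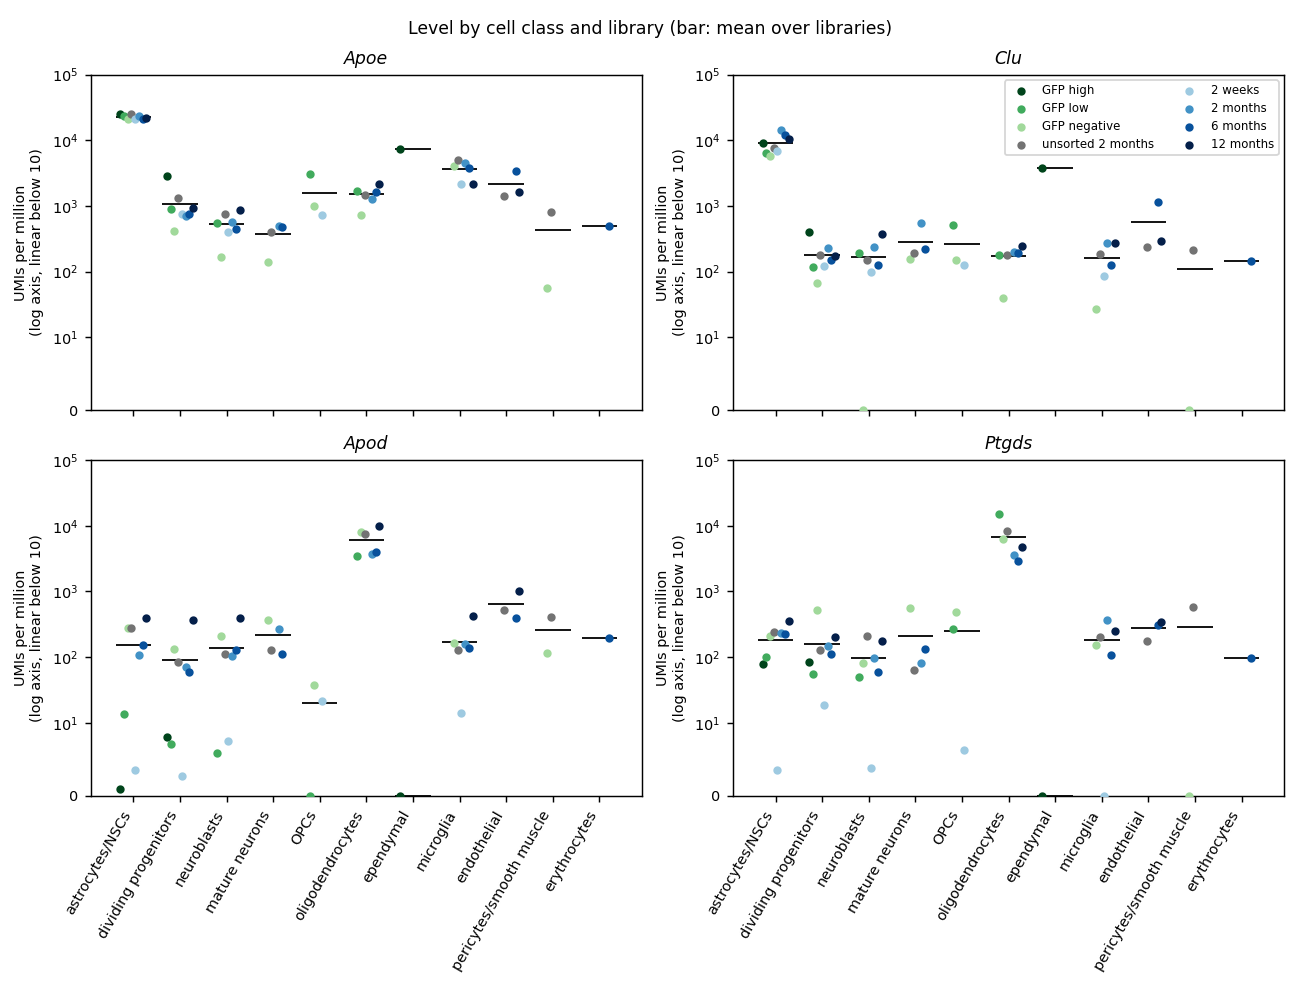
Level of each gene (UMIs per 1000000, log axis that is linear below 10) in each cell class, with 1 point per library that had 20 or more cells of the class and a bar for their unweighted mean. Apoe and Clu were highest in astrocytes and NSCs, and Apod and Ptgds in oligodendrocytes.

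Apoe was highest in astrocytes and NSCs, where it stood at 22673 CPM (SD 1601 over 8 libraries). Ependymal cells came next at 7432 in the 1 library with 20 or more of them, then microglia at 3613 (SD 1194, 6 libraries). The range in microglia, 2164 to 5024, overlapped that in endothelial cells, 1439.7 to 3342, whose mean was 2130. Oligodendrocyte precursors at 1595, oligodendrocytes at 1503 and dividing progenitors at 1078 overlapped one another. Neuroblasts at 534, erythrocytes at 489, pericytes at 427 and mature neurons at 376 were lowest, and their ranges overlapped as well. No library of another class reached the lowest library of astrocytes and NSCs, at 20952.

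Clu had the same leading classes. Astrocytes and NSCs stood at 9032 CPM (SD 2945, 8 libraries), between 5810.3 and 14186, and ependymal cells at 3838. Endothelial cells followed at 563, between 235 and 1159, a level set beside free RNA below. Every other class had a mean of 279 or less, microglia included at 162.

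Apod was highest in oligodendrocytes, at 6129 CPM (SD 2775, 6 libraries). Endothelial cells came next at 649, between 401 and 1017 in 3 libraries, with no overlap with the lowest oligodendrocyte library at 3499. They were not among the classes read for free Apod RNA below, so its part in this level was not tested. Of the 12-month endothelial cells, 2 had 5 or more UMIs of fibroblast markers. All other classes had means of 262 or less, and no Apod UMI was seen in the 60 ependymal cells of the GFP high library. Oligodendrocyte precursors, which give rise to oligodendrocytes, had 19.7.

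Ptgds was likewise highest in oligodendrocytes, at 6789 CPM (SD 4444, 6 libraries), between 2862 and 14919.9. No other class had a mean above 291. The choroid plexus and the meninges, which border this tissue, are known sources of Ptgds, but only 1 kept cell had 20 or more Ttr UMIs and a UMI of another choroid plexus marker.

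Within its leading class Apoe was close to universal. After every cell was thinned to 400 UMIs, 98.0% to 100% of astrocytes and NSCs had an Apoe UMI, depending on the library, and the tenth of cells with the most Apoe held 19.9% to 27.8% of its UMIs. Clu was found in 78.3% to 96.0% of the same thinned cells. Apod was found in 69.7% to 89.5% of thinned oligodendrocytes and Ptgds in 50.9% to 86.3%. Without thinning the shares were 99% to 100%, 90.9% to 99%, 87.2% to 95.7% and 56.4% to 94.5%. Apoe in microglia was spread in another way. Between 42.6% and 68.5% of microglia had no Apoe UMI, and the tenth with the most held 57.6% to 86.9% of the UMIs.

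Droplets also carry free RNA, so each gene was read in classes taken not to make it. For Apoe and Clu the same was done for Aldoc and Slc1a3, partner genes of astrocytes and NSCs. Clu in microglia was 0.470% to 2.66% of its level in astrocytes and NSCs, and its ratio to the partner genes was below that of the source class in 5 of 6 libraries. Clu in oligodendrocytes was likewise below in 5 of 6. Clu in endothelial cells was 2.88% to 9.66% of its source level, against 3.28% to 8.43% for the partner genes. Its ratio to them, 0.787 to 1.15 of that in the source class, had an interval that included the source ratio in each of 3 libraries. Apod in astrocytes and NSCs, dividing progenitors, neuroblasts, mature neurons and microglia was 0.169% to 7.08% of its oligodendrocyte level. The levels of Clu in microglia and oligodendrocytes are read below as background, and those of Apod in these classes as an upper limit for it.

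Apoe in oligodendrocytes stood higher, relative to astrocytes and NSCs, than the partner genes did. It was 3.45% to 10.0% of the level in astrocytes and NSCs, against 1.54% to 3.71% for the partner genes. The interval of its ratio to them lay above the source class in 6 of 6 libraries, by a median factor of 2.56. Endothelial cells were above that ratio in 3 of 3 libraries and mature neurons in 1 of 4. Neuroblasts gave no single picture, with 3 of 7 libraries above and 2 below. Microglia also hold Apoe, so free RNA need not have the ratio of astrocytes and NSCs. Whether oligodendrocytes make Apoe was therefore not settled by this ratio. Ptgds in dividing progenitors stood at 56.1 to 520 CPM in the 6 libraries with 20 or more oligodendrocytes, and in the GFP negative library 64.1% of those UMIs came from 1 cell. After thinning, 0.676% to 8.0% of dividing progenitors had a Ptgds UMI, and 0% to 9.15% of neuroblasts.

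**Figure D2:**
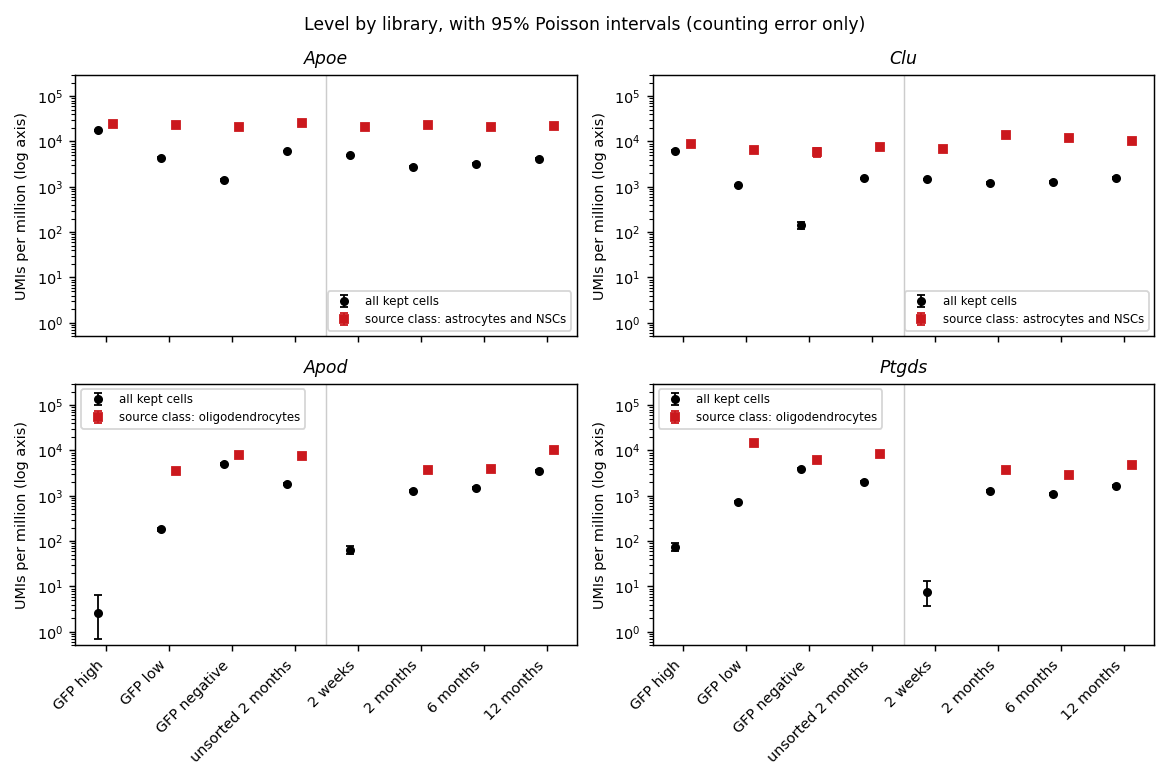
Level of each gene in each library (UMIs per 1000000, log axis, exact 95% Poisson intervals), over all kept cells (black circles) and within astrocytes and NSCs for Apoe and Clu or oligodendrocytes for Apod and Ptgds (red squares). Over all cells Apoe and Clu were highest in the GFP high library, and Apod and Ptgds in the GFP negative library, while the red squares lay closer together.

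Over all kept cells of a library, the levels reflected both which classes the library held and the levels within them. Apoe stood at 6159.9 CPM in unsorted cells, and the age series had 4961, 2789, 3241 and 4209, youngest first. GFP negative cells had 1392. Astrocytes and NSCs were 82.3% of cells in the GFP high library and 2.19% in the GFP negative library. They held 92.2% of Apoe UMIs in the first and 23.9% in the second, where microglia held 35.3% and oligodendrocytes 31.8%. In the other 6 libraries astrocytes and NSCs held 56.3% to 84.5%.

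Clu stood at 6329.6 CPM in the GFP high library, against 1076 with GFP low and 142 with GFP negative cells. Unsorted cells had 1536, and the age series 1455, 1225, 1306 and 1551 in order of age. Astrocytes and NSCs held 64.3% to 93.2% of Clu UMIs in every library.

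Apod stood at 2.59 CPM with 4 UMIs in the GFP high library, at 181 with GFP low, at 5019 with GFP negative and at 1823 with unsorted cells. The age series had 64.2, 1274, 1517 and 3497, youngest first. Oligodendrocytes held 88.3% to 98.4% of Apod UMIs in the 6 libraries with 20 or more of them. The GFP high library held 0 oligodendrocytes. At 2 weeks there were 7, and they held 79.8% of the 94 Apod UMIs, most of these in 1 cell.

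Ptgds had 73.9 CPM with GFP high, 747 with GFP low, 3955 with GFP negative and 2054 with unsorted cells. The age series ran 7.51, 1251, 1121 and 1659 in order of age. Oligodendrocytes held 89.9% to 96.7% of its UMIs in the 6 libraries that had them. In the GFP high library 70.2% of its 114 UMIs lay in astrocytes and NSCs, at 79.3 CPM. In these whole-library values fewer cells of a class and less RNA per cell cannot be told apart, so the comparisons that follow are within a class.

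Apoe differed little between libraries within astrocytes and NSCs. The level was 24725 CPM with GFP high, 23265 with GFP low, 21071 with GFP negative and 25002 with unsorted cells. The age series had 21380.4, 23082, 20952 and 21907, youngest first. The lowest and the highest library were within a factor of 1.19. GFP high over GFP low gave 1.06 (1.04-1.09), and unsorted over 2 months gave 1.08 (1.03-1.14). The 4-fold difference of Apoe between these 2 gates over all cells, 4.02 (3.93-4.11), was therefore not seen within the class.

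Clu varied more in the same cells. Its level was 9007 CPM with GFP high, 6383 with GFP low, 5810.3 with GFP negative and 7674 with unsorted cells, then 6905, 14186, 11995 and 10297 from 2 weeks to 12 months. Those of 2, 6 and 12 months were above all others. GFP high over GFP low gave 1.41 (1.35-1.48), whereas over all cells it gave 5.88. The unsorted library was at 0.541 (0.503-0.582) of the 2-month library, a larger distance than that between the gates. Neither gene passed 2-fold between the gates, which 5.98% of 8768 genes with 20 or more UMIs did upward and 4.55% downward. Between the unsorted and the 2-month library, 18.9% of 3916 genes passed upward and 8.32% downward.

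Astrocytes and NSCs were made of 2 main clusters. The larger, with 1540 cells, had Agt, Gjb6, Cxcl14 and Slc39a12 among its 10 leading genes. It had 14 of 14 markers of the class up, Thbs4 and Gfap included. The other, with 848 cells, had Urah, Ecel1, Veph1 and Lgals3 among its leading genes and 8 of 14 markers up. The cluster names below do not separate astrocytes from NSCs. Apoe stood at 29870.5, 27326, 29418, 27738, 28081 and 22969.5 CPM in the Agt cluster of the GFP high, GFP low, unsorted, 2-week, 2-month and 6-month libraries. In the Urah cluster it stood at 18609, 16485, 18193, 13175, 15265 and 16727. The Agt cluster was higher in 6 of 6 libraries, by 1.37-fold to 2.11-fold. Clu was also higher there in 6 of 6, by 1.54-fold to 2.40-fold. Within these clusters GFP high over GFP low gave 1.09 and 1.13 for Apoe, and 1.31 (1.24-1.38) and 2.04 (1.84-2.26) for Clu, so that the Clu ratio was larger in the Urah cluster. This and the other within-cluster ratios were chosen after the data were seen. In cells of the Urah cluster after thinning, Clu was found in 60.2% to 89.3% of those with an Apoe UMI, against 85.0% to 100% in the Agt cluster.

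The dividing progenitors held 2 clusters that are described apart. The first, 764 cells led by mitotic genes, had Apoe at 1929 CPM with GFP high, 562 with GFP low, 128 with GFP negative and 681 with unsorted cells, and at 2 weeks, 2 months and 6 months it had 361, 541 and 441.4. The second, 675 cells led by Ttr, Gna14 and Gsx1, had 5 of 13 dividing progenitor markers up but none among its 10 leading genes, where Ttr is a choroid plexus marker. Its Apoe level was 4002, 1722, 882, 2207, 1482, 1146 and 1349 in the same order of libraries, above the mitotic cluster in 7 of 7 by 2.07-fold to 6.87-fold. The GFP high library was the highest of 7 in both. GFP high over GFP low was 3.44 (3.01-3.92) in the mitotic cluster and 2.32 (2.09-2.58) in the other, and Clu gave 3.5 and 2.67. Unsorted over 2 months, for comparison, gave 1.26 (0.989-1.61) and 1.93 (1.52-2.47) for Apoe. The median dividing progenitor had 1180 to 2186 UMIs, depending on the library. The GFP high library also had the most astrocytes and NSCs, whose free RNA moves in the same direction, and its part in these ratios was not tested because the library had fewer than 20 neuroblasts to read the background from.

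**Figure D3:**
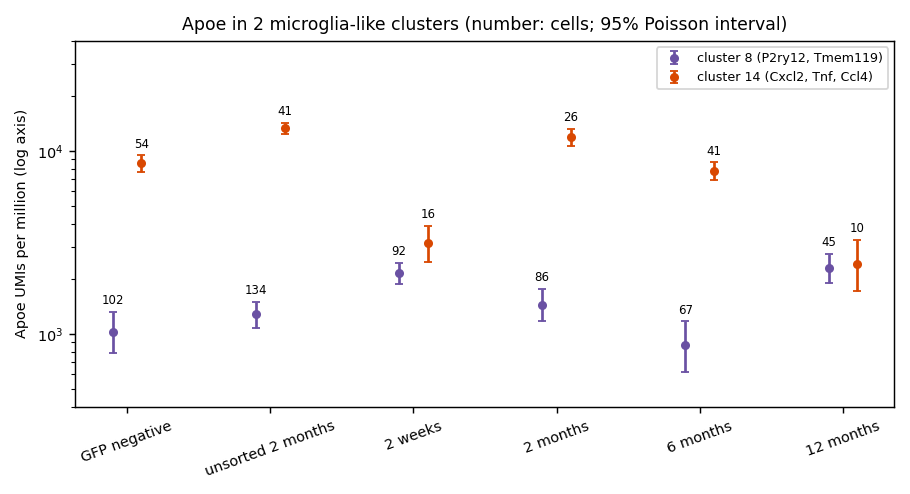
Apoe in the P2ry12 and Cxcl2 clusters of microglia in a finer clustering (clusters 8 and 14 in the plot), per library (UMIs per 1000000, log axis, exact 95% Poisson intervals, number of cells above each point). The Cxcl2 cluster was 8.20-fold to 10.4-fold higher in the 4 libraries with 20 or more cells of each.

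Apoe in microglia, the brain's resident macrophages, was concentrated in few cells. The class stood at 4055 CPM in GFP negative, 5024 in unsorted, 2172 in 2-week, 4463 in 2-month, 3803 in 6-month and 2164 in 12-month cells. The cell with the most Apoe gave 298 UMIs in the unsorted library, 30.2% of the class, and had UMIs of 3 of 8 border macrophage markers. At 12 months the top cell gave 72 UMIs, 43.4% of the class. Without the top cell of each library the levels were 3675, 3568, 1934, 3945, 3253 and 1247, in the same order of libraries.

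A clustering at finer resolution, looked at after the data were seen, split the class. A cluster of 527 cells had the homeostatic microglia genes P2ry12 and Tmem119 among its 10 leading genes, and a cluster of 188 cells was led by the cytokine genes Cxcl2, Tnf, Ccl4 and Il1b. The other 66 cells formed a cluster that also had P2ry12 among its leading genes and is not compared here. Apoe stood at 1024, 1275, 1445 and 865 CPM in the P2ry12 cluster of the GFP negative, unsorted, 2-month and 6-month libraries. In the Cxcl2 cluster it stood at 8534, 13262, 11852 and 7734. The ratios were 8.33, 10.4, 8.20 and 8.94, and 7.58, 6.84, 7.49 and 7.59 without the top cell. The Cxcl2 cluster had only 16 cells at 2 weeks and 10 at 12 months, with 3124 and 2394 CPM against 2141 and 2283 in the P2ry12 cluster. It held 54 of 168 microglia in GFP negative, 41 of 195 in unsorted, 16 of 122 in 2-week, 26 of 118 in 2-month, 41 of 116 in 6-month and 10 of 61 in 12-month cells. The part of this mix in the class levels was not tested.

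**Figure D4:**
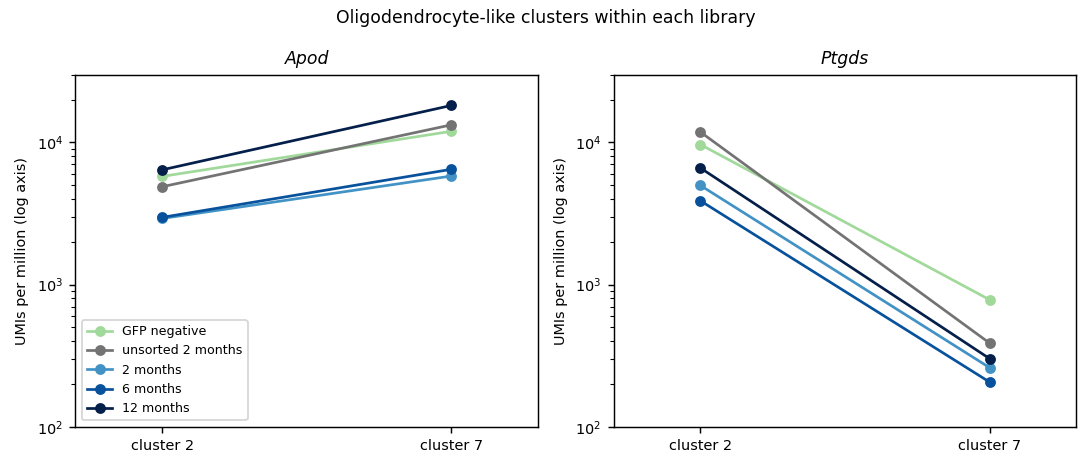
Apod and Ptgds in 2 oligodendrocyte clusters (vertical axes in UMIs per 1000000, log), with 1 line per library joining the Opalin cluster (cluster 2) to the Klk6 cluster (cluster 7). In each of 5 libraries Apod was higher in the Klk6 cluster and Ptgds in the Opalin cluster.

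Apod and Ptgds shared a class and parted within it. Oligodendrocytes fell mainly into a cluster of 1406 cells led by Opalin, Il33 and Ptgds itself and one of 464 cells led by Klk6 and S100b, although neither Apod nor Ptgds was used in the clustering. Apod in the Opalin cluster stood at 5764 CPM in GFP negative, 4878 in unsorted, 2917 in 2-month, 2970.0 in 6-month and 6412 in 12-month cells. In the Klk6 cluster of the same libraries it stood at 11967, 13286, 5799.6, 6468 and 18196. The Klk6 cluster was higher in 5 of 5 libraries, by 1.99-fold to 2.84-fold.

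Ptgds went the other way. In the Opalin cluster it stood at 9659.8, 11819, 4978, 3883 and 6607 CPM, and in the Klk6 cluster at 782, 387, 260, 206 and 301. The Opalin cluster was higher in 5 of 5 libraries, by 12.4-fold to 30.5-fold. Apoe, at far lower levels, was also higher in the Opalin cluster in 5 of 5, by 1.87-fold to 4.16-fold. The Klk6 cluster level in the GFP negative library, 782 CPM, stood beside 564 in mature neurons and 520 in dividing progenitors of the same library.

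Over the whole class the split was also seen cell by cell, and it was weaker by Spearman's rho within the clusters. Among thinned oligodendrocytes with an Apod UMI, 43.5% to 84.6% also had a Ptgds UMI, and among those without one 64.7% to 90.5% did. In the Klk6 cluster the share of Apod-positive cells with Ptgds was 8.82% to 12.0%. Within the Opalin cluster it was 55.8% to 86.3%. Spearman's rho between the thinned counts of both genes ran from -0.45 to -0.06 over the oligodendrocytes of 6 libraries. In the Opalin cluster it ran from -0.27 to -0.02, and in the Klk6 cluster of 5 libraries from -0.21 to -0.01. All cells compared share a fixed total of 400 UMIs. Apoe and Clu in astrocytes and NSCs had rho from 0.10 to 0.536 over 8 libraries. It ran from -0.10 to 0.289 within the Agt cluster and, in 6 libraries, from 0.0563 to 0.645 within the Urah cluster.

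**Figure D5:**
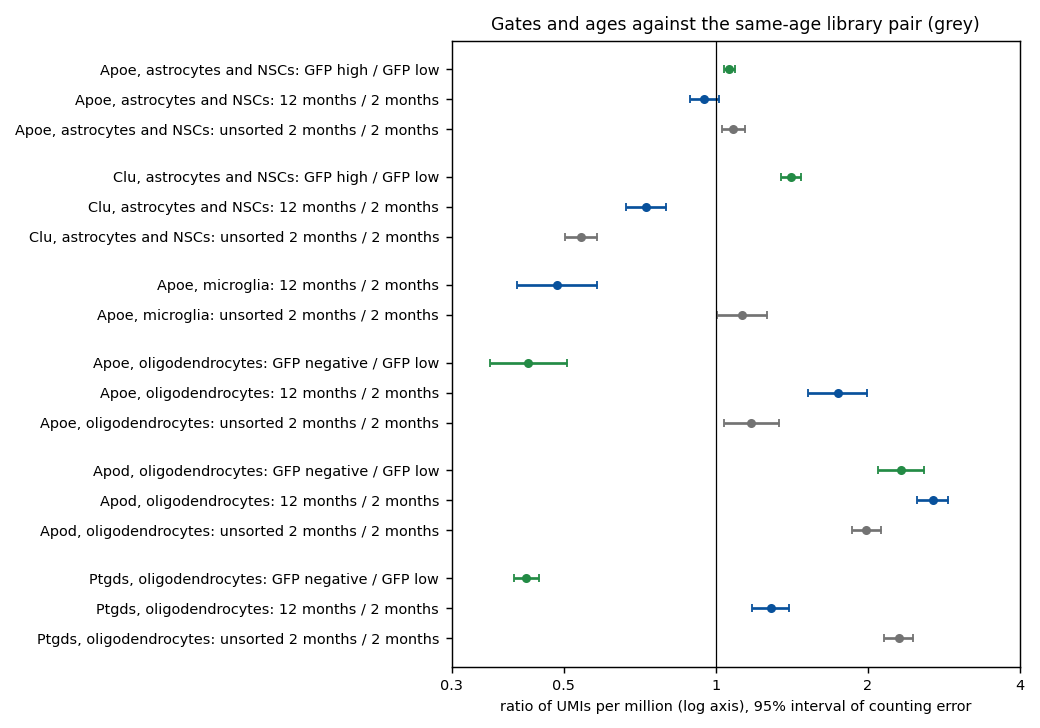
Ratios between libraries within a class (horizontal log axis, exact 95% intervals for counting error), for the GFP gates in green, 12 over 2 months in blue and unsorted over 2 months in grey. Apoe in astrocytes and NSCs lay near 1, and Apod in oligodendrocytes at 12 over 2 months was 2.69, against 1.99 for unsorted over 2 months.

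Across the gates, oligodendrocytes of the GFP low and GFP negative libraries differed by at least 2-fold in 4 of 4 genes. Apod had 3499 CPM in the GFP low library and 8125 in the other, a ratio of 2.32 (2.09-2.58) for GFP negative over GFP low. Ptgds stood at 14919.9 and 6289.6, a ratio of 0.422 (0.398-0.447). Apoe had 1714 and 728, a ratio of 0.425 (0.357-0.507), and Clu, at background, at 178 and 39.9. Thus 1 member was at least 2-fold higher and 3 at least 2-fold lower, where 12.2% of 5044 genes were higher and 7.57% lower. GFP negative over unsorted cells gave 1.09 for Apod, 0.752 for Ptgds and 0.493 for Apoe.

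The 2 libraries did not hold the same oligodendrocytes. Of 73 in the GFP low library 71 were in the Opalin cluster, against 420 of 617 in the GFP negative library. Within that cluster the ratios were nearer to 1, at 1.80 (1.60-2.02) for Apod, 0.636 (0.600-0.676) for Ptgds and 0.552 (0.459-0.667) for Apoe. Of 8 listed genes of the Klk6 side 3 were at least 2-fold higher in GFP negative cells, S100b at 877 against 71.0, Klk6 at 292 against 26.6 and Grm3 at 169 against 71.0 CPM, and 5 did not pass. Of 4 genes of the Opalin side read 1 was lower, Opalin itself at 969 against 2424. Readings of free astrocyte RNA were mixed. In neuroblasts Apoe was 551 CPM with GFP low and 165 with GFP negative cells, the latter from 4 UMIs. In oligodendrocytes Sparcl1 and Cst3, which astrocytes make in quantity, were at 0.227 and 0.422. Aldoc and Slc1a3 together did not fall there, with 124 CPM (14 UMIs) in GFP low and 133 (73 UMIs) in GFP negative cells. The part of free RNA in the Apoe ratio was not tested.

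Age was read in the series from 2 weeks to 12 months. In astrocytes and NSCs, Apoe at 12 months over 2 months gave 0.949 (0.888-1.01), and 12 months over 2 weeks gave 1.02 (0.972-1.08). Clu gave 0.726 (0.663-0.795) over 2 months and 1.49 (1.38-1.62) over 2 weeks. The 12-month library was thus below one younger library and above the other, and it was above the unsorted 2-month library, at 1.34 (1.24-1.45). Apoe and Clu passed 2-fold in neither contrast. At 12 months over 2 months 8.05% of 1466 genes were at least 2-fold higher and 10.0% lower, and over 2 weeks 6.96% of 3577 were higher and 16.0% lower. Within the Agt cluster, which held 80 of 91 of the 12-month cells and 67 of 99 of the 2-month cells, Apoe gave 0.824 (0.767-0.886) and Clu 0.650 (0.590-0.717).

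Apoe in microglia was lower at 12 months than at 2 months, at 0.485 (0.403-0.581), a pass of 2-fold that the mean of per-cell values, 0.575, did not make and that 9.43% of 1675 genes made downward and 5.97% upward. Against 2 weeks the ratio was 0.996 (0.820-1.21). Unsorted over 2 months gave 1.13 (1.01-1.26). The class held 61 cells at 12 months. Of the homeostatic microglia genes, 12 of 12 had enough UMIs and none passed 2-fold between 12 and 2 months, with a median log2 ratio of 0.16 against -0.02 over all genes. Of 19 genes of the disease-associated microglia program, 11 were read, 0 were higher and 1 was lower, Cd63 at 0.246.

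Apoe in oligodendrocytes was higher in the older libraries. Its level at 2, 6 and 12 months was 1256, 1652 and 2191 CPM, against 1477 in unsorted cells. The 12-month library over the 2-month library gave 1.74 (1.53-1.99), and unsorted over 2 months 1.18 (1.04-1.33). The ratio was 1.61 in the Opalin cluster and 3.6 in the Klk6 cluster, where the unsorted library was also above, at 2.17. Apoe in neuroblasts gave 1.55 (1.16-2.05), and Clu in oligodendrocytes, at background, 1.27 (0.869-1.85). Sparcl1 and Cst3, read above for free astrocyte RNA, gave 2.66 and 2.25 in the same oligodendrocytes, more than Apoe. Aldoc and Slc1a3 together stood there at 157 CPM at 2 months and 240 at 12 months. The part of free RNA in the oligodendrocyte ratio was not tested.

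Apod in oligodendrocytes stood at 3739, 3932 and 10049 CPM at 2, 6 and 12 months. The 12-month library was the highest of 6, and the 6-month library was close to the 2-month one, at 1.05 (0.977-1.13). The ratio of 12 months over 2 months was 2.69 (2.51-2.88), and over 6 months 2.56 (2.40-2.73). The unsorted library of 2 months, at 7430.3, was itself 1.99 (1.86-2.12) times the 2-month library, and 12 months over unsorted gave 1.35 (1.28-1.43). The 12-month library was thus 1.35-fold to 2.69-fold above the 2 libraries of 2 months that had no GFP gate. Within the Opalin and Klk6 clusters 12 months over 2 months gave 2.20 (1.99-2.43) and 3.14 (2.84-3.48). Apod in classes taken not to make it was higher as well at 12 months, with 2.67 in microglia, 3.59 in astrocytes and NSCs and 3.8 in neuroblasts.

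Ptgds followed another order. At 2, 6 and 12 months it stood at 3632, 2862 and 4669 CPM, with 8364 in unsorted cells. At 12 over 2 months the ratio was 1.29 (1.18-1.40), smaller than unsorted over 2 months at 2.30 (2.16-2.46). Of the 4 genes, Apod alone passed 2-fold in oligodendrocytes between 12 and 2 months, where 8.29% of 4413 genes were higher and 7.21% lower. Between unsorted and 2-month oligodendrocytes Apod, at 1.99, was just under 2-fold and Ptgds passed it, where 11.9% of 5644 genes were higher and 6.70% lower.

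Transcripts encoded by the mitochondrial genome, a rough sign of cell state and RNA quality, were also highest at 12 months. Their sum in oligodendrocytes was 18242, 26477 and 32238 CPM at 2, 6 and 12 months, and 26423 in unsorted cells. In the GFP low and GFP negative libraries it was 17229 and 17395. The part of this sum in the age difference of Apod was not tested. The Xist and Y split gave no constant direction: within the libraries that held both, Xist-only over Y-only oligodendrocytes gave 1.02, 0.981 and 0.646 for Apod and 1.3, 0.834 and 1.27 for Ptgds.

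Cholesterol synthesis supplies the sterol that these carriers move, and oligodendrocytes use it for myelin. Of its 23 listed genes 15 were read in oligodendrocytes between 12 and 2 months. Of these 0 were at least 2-fold higher and 8 were lower, where 8.29% and 7.21% of all genes were. Their median log2 ratio was -1.14 against -0.00 over all genes. Hmgcs1, an early step, stood at 127 against 434 CPM, and Sqle and Fdft1 were at 0.158 and 0.217. Between unsorted and 2-month cells the same list had 3 higher and 2 lower of 21, with a median of -0.35. Of all genes 11.9% were higher and 6.70% lower there. GFP negative over GFP low gave 3 higher and 0 lower of 18, with Sqle at 4.29, where 12.2% and 7.57% of all genes were. In astrocytes and NSCs none of 22 passed between the gates. At 12 months over 2 months 0 were higher and 1 lower of 6, where 8.05% and 10.0% of all genes were. At 12 months over 2 weeks, where 16.0% of all genes were lower, 0 were higher and 6 lower of 17, among them Fdps at 0.239, Hmgcs1 at 0.319 and Pmvk and Tm7sf2, which had few UMIs.

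Of 7 intracellular fatty acid carriers read in astrocytes and NSCs at 12 months over 2 weeks 0 were higher and 3 lower, where 16.0% of all genes were lower, with Fabp7 at 178 against 2779 CPM and Dbi, the acyl-CoA binding protein, at 1953 against 6275. Against 2 months, where 10.0% of all genes were lower, 0 were higher and 3 lower of 5, Fabp7 at 0.421 and Dbi at 0.457. Unsorted over 2 months gave 2 higher and 1 lower of 7, with Fabp7 at 2.14, where 18.9% and 8.32% of all genes were. Fabp7 is also known as a marker of stem and progenitor states, and the share of the Urah cluster in the class was 42.6% at 2 weeks, 29.3% at 2 months and 12.1% at 12 months. Its part was not tested.

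Extracellular chaperones and complement proteins, the partners of Clu, had 3 of 6 genes higher and 0 lower in oligodendrocytes at 12 over 2 months, where 8.29% of all genes were higher. C4b, a complement component, stood at 94.0 against 11.9 CPM, and the others were Sparcl1 and Cst3, the 2 genes read above for free astrocyte RNA. In astrocytes and NSCs 1 of 5 was higher, C4b at 2.25 over 2 months and at 5.02 over 2 weeks. Of all genes 8.05% and 6.96% were at least 2-fold higher in these contrasts. Of 20 lipoprotein receptors and uptake genes, 15 reached 50 CPM in a class, and microglia were the highest class of 4, endothelial cells of 3 and oligodendrocytes of 3. Bsg peaked in endothelial cells at 15462 CPM, and Tyrobp and Trem2 in microglia at 2036 and 1527. In oligodendrocytes Sorl1, a sorting receptor that binds Apoe, was at 2.57 at 12 over 2 months, where 8.29% of all genes were at least 2-fold higher. None of 6 passed 2-fold in microglia at 12 over 2 months. Of the export genes, Pltp, the phospholipid transfer protein, peaked in endothelial cells at 4056. It was 2.39-fold higher in GFP high than in GFP low astrocytes and NSCs. The list had 1 higher and 2 lower of 8 there, where 5.98% and 4.55% of all genes were. Of the prostaglandin genes, Hpgds, the other prostaglandin D2 synthase, and Ptgs1 peaked in microglia at 1088 and 927.

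Genes with the most similar pattern were taken by Pearson's r of log2(CPM + 10) over the 11 class means, among 6254 genes that reached 100 CPM in a class. The class means share libraries and depth, and the correlations describe these classes only. For Apoe they were Eva1a (0.933), Cyp2d22 (0.902), Phkg1 (0.897), Gja1 (0.889) and Entpd2 (0.888). For Clu they were Aqp4, the astrocyte water channel (0.976), Pla2g7 (0.974), Prodh (0.972), Mt3 (0.962) and Slc39a12 (0.960). Apod went with Car2 (0.988), Mal (0.987), Ermn (0.975), Gm21984 (0.958) and Opalin (0.953), and Ptgds with the myelin genes Mobp (0.937) and Mog (0.903) and with Pithd1 (0.918) and Arl2 (0.907). Apoe and Clu had r = 0.850 and Apod and Ptgds r = 0.877.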

How the data were processed

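The deposited tables hold UMI counts per gene and cell barcode, 1 table per library, which the authors made from Drop-seq reads. The submitters' processing notes name the builds mm10 and GRCm38, and the aligner is not given in the sources used here. Barcodes with 400 or more UMIs were kept. Doublets were called with Scrublet (expected share 5%) and marked 1.38% of them. Cells were clustered with scanpy 1.11.5 and leidenalg 0.10.2 (Python 3.11.15) on 2000 variable genes without the 4 members, 30 components, 15 neighbours and resolution 1. A cluster took the class with the most markers at 2-fold or more, with at least 3. Levels are summed UMIs per 1000000 (CPM), a class needed 20 cells in a library, and class means weight libraries equally. Poisson, Clopper-Pearson and conditional binomial intervals came from scipy 1.17.1. A gene was read in a contrast with 20 or more UMIs over both groups. Genes named beside the members are the 5 most similar by class pattern and, per list, the up to 4 farthest past 2-fold. Genes in other classes and marker names given for clusters are descriptions. The ratio code was tested on simulated data. No test between groups was made, since each is 1 library. The members and gene lists were chosen with earlier results of these data known. Values of some listed genes are not reported here.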

Additional observations from a re-analysis of the deposited data

Results flagged for a closer look

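Apoe at 12 months over 2 months lay in opposite directions in 2 classes of the same libraries: 1.74 in oligodendrocytes and 0.485 in microglia. The difference between the classes was not tested. The microglia value rests on 61 cells at 12 months, 1 of which gave 43.4% of the UMIs, and it was 0.316 with the top cell of each library left out.

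The 1917 barcodes with fewer than 400 UMIs, which entered no comparison, carried all 4 genes. Over their 567787 UMIs, Apoe stood at 11066 CPM, Clu at 4102, Apod at 893 and Ptgds at 808, where a count of 0 allows up to 5.28. Apoe in those of the GFP high library stood at 24225.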

How the results depend on the processing

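No paired analysis was possible because each group is 1 library, and for the same reason no replicate could be left out. Of 104 ratios recomputed under other settings chosen at the start, 92 moved by less than their counting interval and 12 by more. Apoe in microglia at 12 months over 2 weeks, 0.996 as reported, lay on either side of 1. With a minimum of 1000 UMIs per cell, Clu GFP high over GFP low was 1.68, Apod and Ptgds GFP negative over GFP low 2.58 and 0.329, and Apoe in microglia at 12 months 0.328 over 2 months and 1.28 over 2 weeks. With the mean of per-cell values, Clu GFP high over GFP low was 1.34, Apod GFP negative over GFP low 2.08, Apod 12 over 2 months 2.35 and Apoe in microglia at 12 over 2 months 0.575, under 2-fold. Apoe in microglia at 12 months was 0.316 over 2 months and 0.645 over 2 weeks without the top cell of each library, and 0.330 and 0.725 less the neuroblast level, so its ratio to 2 weeks has no settled direction. Ratios within clusters, added after the data were seen, were 1.09 and 1.13 for Apoe and 1.31 and 2.04 for Clu between GFP high and GFP low, 1.80 for Apod and 0.636 for Ptgds between GFP negative and GFP low, and at 12 over 2 months 0.824 for Apoe, 0.650 for Clu, 2.20 and 3.14 for Apod and 1.16 for Ptgds in the Klk6 cluster. At 12 months over 2 weeks they were 0.834 for Apoe and 1.24 for Clu. The cause of these shifts was not tested. Genes past 2-fold over 7 contrasts numbered 4269 of 27035, 1066 with 50 or more UMIs per gene, 21257 with 1 or more in each group and 10082 past 1.5-fold. Not run for want of 20 cells were the GFP high ratios less the neuroblast level, the 12 over 2 months ratios in astrocytes and NSCs at 1000 UMIs, and some ratios within the Klk6 and Urah clusters. Class depths of 568 to 2186 UMIs per median cell limit what can be read in rare cells.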

Other observations

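Border macrophages, the macrophages of vessels, meninges and choroid plexus, carried much Apoe. The 23 cells with 3 or more UMIs of their markers, pooled, stood at 37491 CPM (35452-39617), and 22 of 23 had an Apoe UMI. The mean over libraries of astrocytes and NSCs was 22673. Not all 23 lay in the unnamed cluster of blood and border cells. In the GFP negative library 3 were in the oligodendrocyte class and 1 in the endothelial class. In the microglia class there were 2 at 2 weeks and 1 in unsorted cells, and 1 was a dividing progenitor with GFP low. Of the Apoe UMIs of all 23 cells, 23.6% came from 1 cell with 298, which is the top cell of unsorted microglia described above. In a finer clustering 16 cells led by Pf4, Ms4a7 and Mrc1, looked at after the data were seen, stood at 49027 in GFP low, 46715 in GFP negative, 61686 in unsorted and 22991 in 2-week cells, from 1 to 7 cells each. At 2 weeks they were below the Agt cluster of the same library, at 27738. The same 23 cells had 148 CPM of Clu.

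Fibroblasts, 17 cells with 5 or more UMIs of fibroblast markers, carried both Apoe and Apod, at 4637 (3647-5812) and 4575 (3592-5743) CPM, with 42.7% and 36.5% of the UMIs in 1 cell. Of the 114 cells of the pericyte cluster 14 were such cells, with Apod at 4339.7, against 325 in the other 100. The 1 cell with choroid plexus markers, with 434 Ttr UMIs, had 3 Apoe, 3 Clu and 2 Ptgds UMIs.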
